A study of Homo sapiens with 8 samples.

Results

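The LINC long noncoding RNAs were described here across 2 T-cell acute lymphoblastic leukaemia cell lines, DND-41 and MOLT-4. A member is a gene row whose symbol is LINC followed by digits only and which held 20 or more counts in at least 2 of the 8 libraries. The rule took 88 rows out of 63677 gene rows, and out of 643 rows with a LINC symbol. Cells of each line had been treated for 8 h with 100 nM ACBI-1 or with its solvent DMSO, which gave 4 groups of 2 libraries: DND-41 with DMSO, DND-41 with ACBI-1, MOLT-4 with DMSO and MOLT-4 with ACBI-1. The members were thus selected on their counts, and levels are given as descriptions. Whether the 2 libraries of a group were separate cultures is not stated, so every p-value below reflects library-to-library spread that could be technical only.

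LINC symbols are placeholders for long intergenic noncoding RNAs, transcripts of RNA polymerase II that are usually spliced and polyadenylated, hold no long reading frame and lie between protein-coding genes. Many start from the same open chromatin as a neighbouring promoter or enhancer, and their levels tend to differ more between cell types than those of coding genes. ACBI-1 is a degrader (a PROTAC) that joins the VHL ubiquitin ligase to the bromodomains of SMARCA2, SMARCA4 and PBRM1, the ATPases and a subunit of the BAF and PBAF chromatin remodelling complexes, so that these proteins are destroyed. Protein was not measured here.

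Library totals lay between 19860759 and 20239888 counts, and members held 0.0711 to 0.0897% of them. At this depth 3 counts in a library equal about 0.15 CPM (counts per 1e+06). The T-lineage markers (CD3D, CD3E, CD3G, CD2, CD5, CD7, LCK and PTCRA) summed to 4470 to 5149 CPM in DND-41 and 2495 to 2727 CPM in MOLT-4, with PTCRA at 0 or 1 count per library in DND-41. The summed B-lineage markers reached 936 to 1588 CPM in DND-41, nearly all of it CD79A, and 4.13 to 8.24 CPM in MOLT-4, and myeloid and erythroid markers were at or near 0. The 4 stromal or epithelial markers summed to between 0 and 67.4 CPM in MOLT-4. The collagen gene COL1A1 was counted 42 and 1115 times in the MOLT-4 libraries with DMSO and 0 and 207 times in those with ACBI-1 (replicates 1 and 2), against 0 to 2 in DND-41. The MOLT-4 replicate 2 libraries therefore stand apart. The main MOLT-4 counts of calls after ACBI-1 are also given without both of them, in 1 fit with DND-41. In that fit a single library stands for each MOLT-4 group and is assumed to vary like the DND-41 libraries. The part of these markers in the members' values was not tested. Directions below follow the treatment in the names of the count columns. In the authors' deposited table for DND-41, the fold changes of all 31 members called here have the same sign as those from the counts, and in the authors' deposited table for MOLT-4 all 31 have the opposite sign. The tables' text does not say which treatment is the numerator, so a reversed ratio in that table and exchanged MOLT-4 column names cannot be told apart from it, and every MOLT-4 direction rests on the column names. With the names as they stand, 216 of the 3773 genes called in both lines had opposite signs in the 2 lines.

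Of the 643 LINC rows, 555 were under the minimum and 357 were at 0 in all 8 libraries. The members just inside the limit were LINC01056, LINC00452 and LINC01006, whose second-highest counts were 20, 21 and 21. Just outside were LINC00449, LINC00471 and LINC00663, at 19, 18 and 18. A total of 48 members reached 20 counts in all 8 libraries, while 16 did so in both libraries of at most 1 group. For these 16 the rule itself used the contrast, so their treatment effects are descriptions. The same holds for LINC01011, which reached 20 counts only with ACBI-1, in both lines.

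The members are a mixed class of transcripts. By gene identifier, 84 of the 88 matched the GENCODE 29 annotation. There, 47 are lincRNAs, 8 antisense RNAs, 10 protein-coding genes, 7 pseudogenes and 12 other noncoding types. RefSeq now lists 35 of them under another symbol. LINC00657 is NORAD, an abundant RNA that binds Pumilio proteins, and LINC00152 is CYTOR. LINC00116 is MTLN, which encodes the mitochondrial micropeptide mitoregulin, and LINC00493 and LINC00998 are SMIM26 and SMIM30, which encode small membrane proteins. In GENCODE, 27 members overlap a protein-coding gene, 13 of them on the same strand and 16 on the opposite strand. The libraries were strand-specific per the labels, but the strand setting of the counting is not given in the sources used here, so reads of overlapping pairs may be shared.

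With DMSO, LINC00657 was the most abundant member in both lines. It was counted 4680 and 4783 times in DND-41 (227 ± 6.40 CPM, SD, n = 2) and 4541 and 4669 times in MOLT-4 (235 CPM), and made up 20.4 to 29.6% of all member counts in the 8 libraries. Per kilobase of exon (GENCODE lengths), its level was 42.4 CPM per kb in DND-41 and 44.1 in MOLT-4. LINC00674 and LINC00493 followed in DND-41, at 26.3 and 13.9 CPM per kb. In MOLT-4, LINC00493 and LINC00665 followed at 16.3 and 15.5 CPM per kb. The median member was at 2.73 CPM in DND-41 and 3.04 CPM in MOLT-4 with DMSO, so most members were low.

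Between the lines with DMSO, 30 of the 86 members tested were higher in MOLT-4 and 35 were lower (edgeR's quasi-likelihood test, adjusted p under 0.05). Over all 14868 genes tested, 34.7% were higher and 32.7% lower. Since a member could enter through 1 line alone, these counts are a description and nothing is read from them. LINC00665, also counted in every library, stood far from equal levels. Its counts with DMSO were 45 and 39 in DND-41 and 2209 and 2163 in MOLT-4. LINC00152 went the other way, with 449 and 484 counts in DND-41 and 53 and 59 in MOLT-4.

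**Figure D1:**
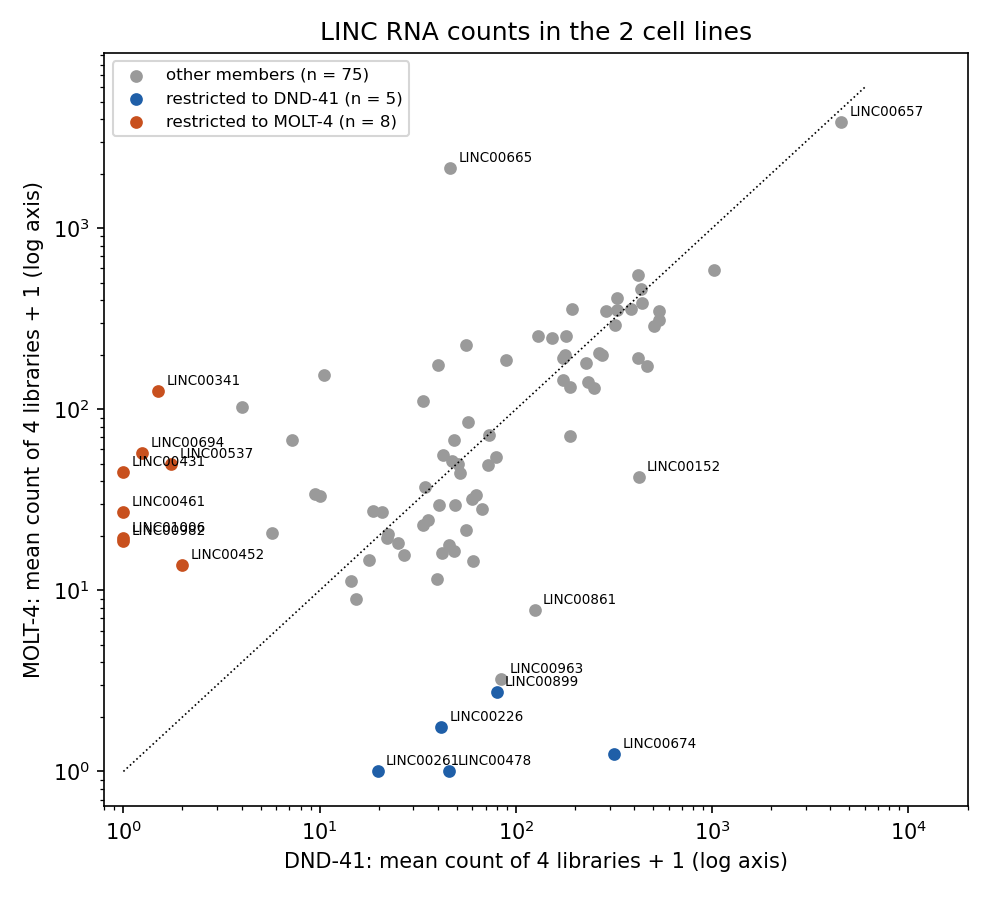
Each point is 1 of the 88 LINC RNAs, plotted by its mean count over the 4 DND-41 libraries (x axis) and the 4 MOLT-4 libraries (y axis), plus 1, on log axes. The dotted line marks equal counts. The 5 members restricted to DND-41 lie along the bottom and the 8 restricted to MOLT-4 along the left edge.

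Restriction to 1 line was defined as 20 or more counts in at least 2 of a line's 4 libraries with at most 3 counts in each library of the other line. It held for 5 members in DND-41 and 8 in MOLT-4, that is 5.68 and 9.09% of the members. Of all 13892 gene rows at the same minimum, 1.57% were restricted to DND-41 and 3.91% to MOLT-4. For the other GENCODE long noncoding RNAs at that minimum, numbering 1184, the shares were 3.38 and 3.46%, and for protein-coding genes 1.09 and 3.91%. No test was made, because the rule already used these counts. Without both MOLT-4 replicate 2 libraries, 6 members met the definition in DND-41 and 4 in MOLT-4, where both remaining libraries then had to reach 20 counts.

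LINC00674 was the most abundant restricted member. It had 420 and 386 counts in DND-41 with DMSO, 223 and 231 with ACBI-1, and 0, 1, 0 and 0 in the MOLT-4 libraries. The summed counts of 1260 and 1 give a ratio of 1136 with an exact 95% interval of 204 to 44900, which covers counting error only. GENCODE classes it as a transcribed pseudogene, so reads could also belong to a related copy. LINC00899 had 81, 74, 81 and 79 counts in the DND-41 libraries against 1 to 3 in MOLT-4. LINC00226 had 28 to 54 counts in DND-41 and 3 counts in all in MOLT-4.

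LINC00478 was at 0 in all 4 MOLT-4 libraries and at 37 to 48 counts in DND-41, with 2.10 ± 0.227 CPM (SD, n = 4). Against a floor of 3 counts per library it was at least 14.1-fold higher in DND-41. RefSeq names this gene MIR99AHG, the host transcript of miR-99a and let-7c. LINC00461 had the opposite pattern, with 33 and 26 counts in MOLT-4 with DMSO, 19 and 26 with ACBI-1 and 0 in every DND-41 library, which makes it at least 9.04-fold higher in MOLT-4. Its RefSeq name is MIR9-2HG, the host of miR-9. The libraries were made for long RNA and the mature miRNAs were not measured. Their RefSeq sequences (GRCh38.p14) are shown because they are the products that distinguish these 2 hosts, with the seed, bases 2 to 8, in capitals.
hsa-let-7c-5p: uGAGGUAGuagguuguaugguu
hsa-miR-99a-5p: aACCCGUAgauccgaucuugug
hsa-miR-9-5p: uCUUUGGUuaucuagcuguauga
The 3 seeds differ from each other.

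Among the members restricted to MOLT-4, LINC00341 had the highest counts, 118 and 150 with DMSO and 103 and 128 with ACBI-1, against 1, 1, 0 and 0 in DND-41. LINC00694 had 75 and 62 counts with DMSO and 57 and 32 with ACBI-1, against a single count in DND-41. LINC00431 was at 40 to 49 counts in MOLT-4 and at 0 in all 4 DND-41 libraries, so it was at least 15.2-fold higher in MOLT-4. LINC00537 had 33 to 77 counts in MOLT-4 and 3 in 1 DND-41 library. RefSeq lists LINC00341, matched by synonym, under the protein-coding gene SYNE3. GENCODE classes LINC00694, LINC00431 and LINC00537 as pseudogenes, and for LINC00431 and LINC00537 reads could also belong to a related copy. LINC00694 overlaps ZNF445 on the same strand, so reads may be shared there. LINC01006 had 12 to 27 counts in MOLT-4 and 0 in DND-41. The other two, LINC00982 and LINC00452, were present in MOLT-4 in only 1 treatment and are described below.

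After ACBI-1, more members fell than rose in both lines. In DND-41, 75 members could be tested: 25 fell, 6 rose and 44 did not pass. Members lower made up 33.3% of those tested, against 23.2% of all 14008 genes tested, and members higher 8% against 20%. In MOLT-4, 79 could be tested: 19 fell, 12 rose and 48 did not pass. There the members lower were 24.1%, against 24.4% of all 14239 genes tested, and the members higher 15.2% against 20.7%. The share called in either direction was 41.3% of members and 43.2% of all genes in DND-41, and 39.2 and 45.1% in MOLT-4. With a change of 2-fold or more also required, 10 members were called in DND-41 (8 lower) and 14 in MOLT-4 (10 lower), against 8.4 and 10.4% of all genes. The median log2 fold change of the members was -0.20 in DND-41 and -0.13 in MOLT-4, against 0.01 and 0.00095 over all genes tested. Nothing particular to LINC RNAs is read from these shares, since the count minimum fixes part of them.

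Among the 16 members that met the minimum in at most 1 group, 5 were called in each line. Without them, 21 members fell and 5 rose in DND-41, and 17 fell and 9 rose in MOLT-4. Leaving out both MOLT-4 replicate 2 libraries gave 15 falls and 6 rises in MOLT-4, and 20 of the 31 calls were kept. DESeq2 called 13 falls and 2 rises in DND-41 in place of 25 and 6. In MOLT-4, 23 of the 31 calls were also made by DESeq2.

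Between the lines, 66 members were tested in both and 15 were called in both, or 22.7%, against 29.3% of the 12859 genes tested in both. The 15 were among 24 DND-41 calls that were tested in MOLT-4 and 26 MOLT-4 calls that were tested in DND-41. Of the 15, 12 were lower in both lines, 2 higher in both and 1 moved in opposite directions. With DESeq2, only LINC00094, LINC00422, LINC00426 and LINC01003 of the 15 were called in both lines, each lower. Of all genes tested in both, 15.6% were lower in both and 12% higher in both. The 12 were LINC00094, LINC00152, LINC00422, LINC00426, LINC00528, LINC00863, LINC00910, LINC00920, LINC00938, LINC00984, LINC01003 and LINC01132. Because LINC01132 met the minimum in both libraries of DND-41 with DMSO only, its place here is a description. In 11 of the 15, 9 of them lower in both, the MOLT-4 call was kept without both replicate 2 libraries. LINC00152, LINC00910, LINC01132 and LINC01011 lost it, with edgeR adjusted p of 0.105, 0.295, 0.118 and 0.0888.

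**Figure D2:**
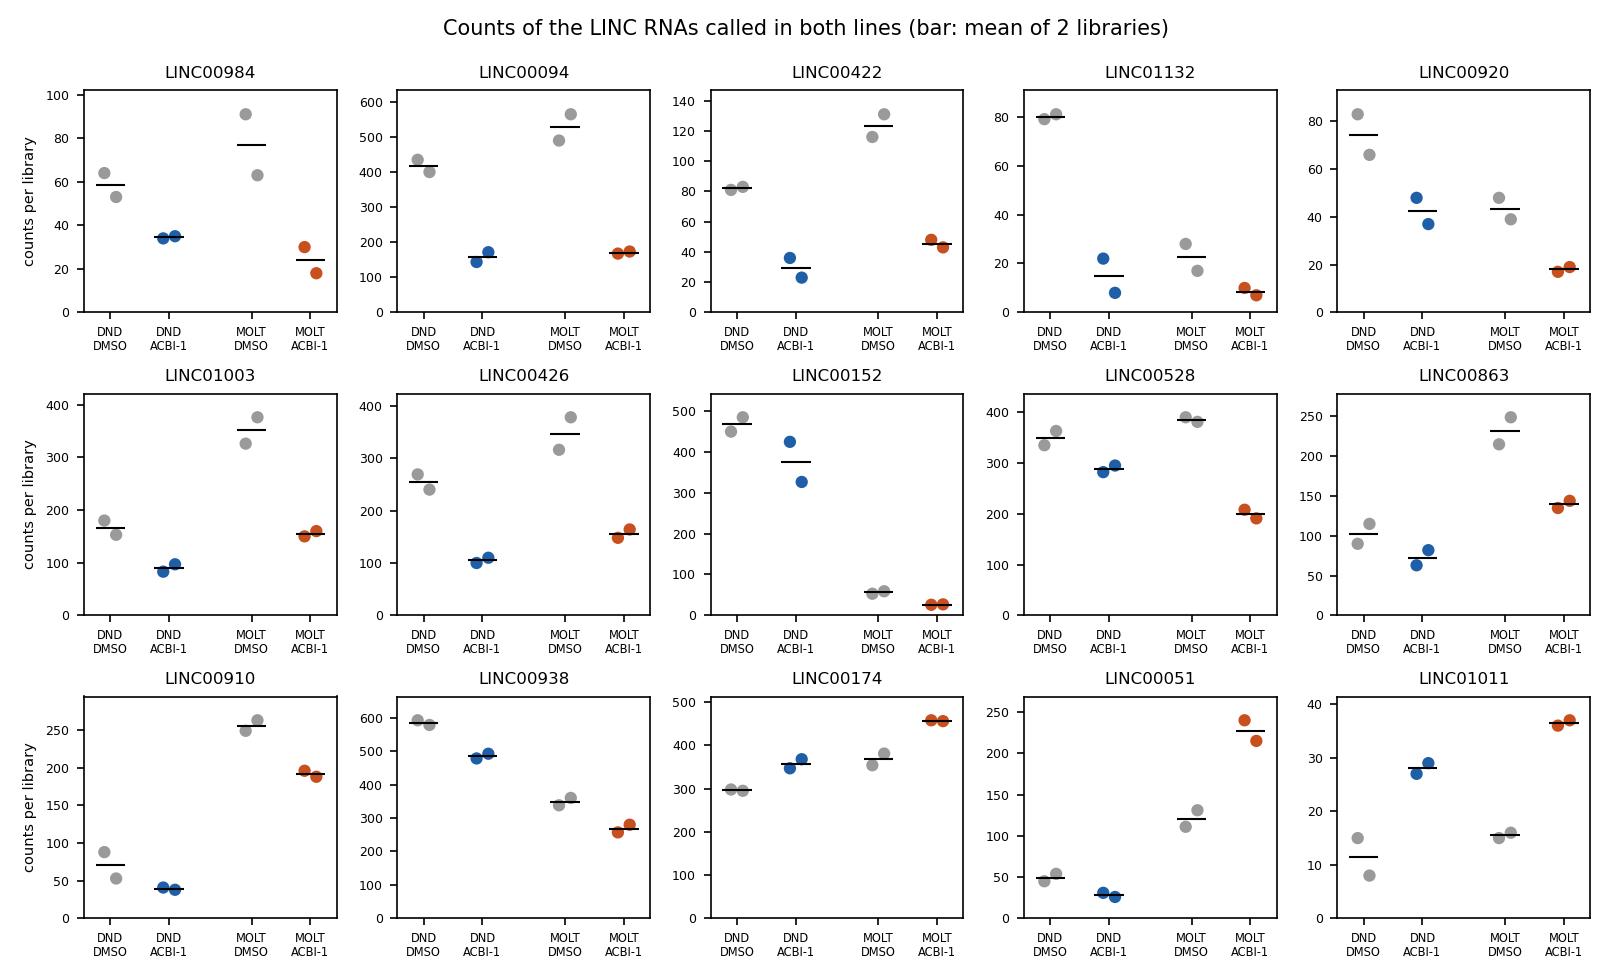
Counts per library of the 15 LINC RNAs called in both lines, with DMSO in grey, DND-41 with ACBI-1 in blue and MOLT-4 with ACBI-1 in orange. Each point is a library and each bar the mean of 2 libraries, and y axes start at 0 and differ between panels. LINC00094 drops from 401 to 566 counts with DMSO to 144 to 174 with ACBI-1 over both lines.

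Of these 12, LINC00094 had the smallest adjusted p in both lines. RefSeq lists it as BRD3OS, the gene on the strand opposite BRD3, and both RefSeq and GENCODE class it as protein-coding. Its counts were 436 and 401 with DMSO and 144 and 172 with ACBI-1 in DND-41, and 491 and 566 against 168 and 174 in MOLT-4. The groups did not overlap in either line, which was so for each of these 12. The log2 fold change was -1.43 ± 0.11 (SE, edgeR adjusted p = 9.39e-08) in DND-41 and -1.55 ± 0.10 (adjusted p = 1.30e-10) in MOLT-4. BRD3 itself, which encodes a BET bromodomain protein, differed from this pattern, with log2 fold changes of 0.29 ± 0.06 (adjusted p = 0.00108) and 0.03 ± 0.06 (adjusted p = 0.662).

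LINC00426 fell from 269 and 240 to 100 and 110 counts in DND-41 and from 316 and 378 to 148 and 164 in MOLT-4. Its log2 fold changes of -1.30 ± 0.13 and -1.08 ± 0.11 had edgeR adjusted p of 1.51e-06 and 2.31e-07. LINC00422, listed as LINC00539 in RefSeq, went from 81 and 83 to 36 and 23 counts and from 116 and 131 to 48 and 43, with log2 fold changes of -1.49 ± 0.25 (adjusted p = 0.000215) and -1.36 ± 0.18 (adjusted p = 3.90e-06). LINC01003, a single-exon transcript in GENCODE whose nearest coding gene is the histone methyltransferase gene KMT2C, went from 180 and 153 to 83 and 97 counts and from 326 and 376 to 150 and 160. Its log2 fold changes were -0.91 ± 0.15 (adjusted p = 0.000253) and -1.10 ± 0.11 (adjusted p = 9.81e-08). None of the calls of LINC00094, LINC00426, LINC00422 and LINC01003 was lost when any 1 library was left out.

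LINC01132 had the deepest fall of the 12 in DND-41, from 79 and 81 to 22 and 8 counts (log2 fold change -2.42 ± 0.32, edgeR adjusted p = 2.77e-05). LINC01132 reached the minimum in both libraries of DND-41 with DMSO only, so its falls are descriptions. In MOLT-4 it was low in every library, at 28 and 17 against 10 and 7 counts, and its call (-1.32 ± 0.42, adjusted p = 0.0145) was lost without ACBI-1 replicate 2 or DMSO replicate 1 (adjusted p of 0.128 and 0.255). LINC00984, which RefSeq lists as the protein-coding gene INAFM2, had 64 and 53 against 34 and 35 counts in DND-41 and 91 and 63 against 30 and 18 in MOLT-4. Its DND-41 call (adjusted p = 0.0159) was lost without DMSO replicate 1 (adjusted p = 0.147). LINC00152, counted 449 and 484 times with DMSO and 424 and 326 times with ACBI-1 in DND-41, had its call there (adjusted p = 0.0364) lost without ACBI-1 replicate 2 or DMSO replicate 2 (adjusted p of 0.315 and 0.110).

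Calls were also lost on leaving out 1 library for LINC00938, LINC00863, LINC00910 and LINC00920. LINC00938 went from 592 and 578 to 478 and 492 counts in DND-41 and from 338 and 360 to 257 and 280 in MOLT-4, with log2 fold changes of -0.29 ± 0.08 and -0.30 ± 0.10. Its groups did not overlap, but the calls were lost without DND-41 DMSO replicate 1 (edgeR adjusted p = 0.0522) and without MOLT-4 ACBI-1 replicate 1 (adjusted p = 0.172). LINC00863 lost its DND-41 call without ACBI-1 replicate 1 or DMSO replicate 2 (adjusted p of 0.131 and 0.362). LINC00910 and LINC00920, with DND-41 log2 fold changes of -0.85 ± 0.26 and -0.83 ± 0.23, lost theirs without DMSO replicate 1 (adjusted p of 0.323 and 0.0928). In MOLT-4, LINC00910 went from 249 and 263 to 196 and 188 counts, and lost its call without DMSO replicate 2 (adjusted p = 0.0506). LINC00920 went from 48 and 39 to 17 and 19 counts there (log2 fold change -1.19 ± 0.31, edgeR adjusted p = 0.00388).

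RefSeq gave a promoter window, 250 bases before to 50 after the start, for 65 of the 88 members and 11 of the 12 that fell in both lines. The windows of 4 of the 12 are shown because they belong to well-counted or deep falls and differ widely in composition. Capitals mark matches on either strand to short motifs, searched without regard to whether they overlap. The RUNX factors, regulators of the T lineage, bind TGTGGT. The core used for the ETS factors was CCGGAA, and that for the GATA factors was AGATAA. For the E-box of basic helix-loop-helix proteins it was CAGCTG. The letters of RBPJ, the DNA-binding partner of NOTCH, were GTGGGAA. AP-1 was searched as TGANTCA and NFY as CCAAT. The GC box of Sp factors was GGGCGG and the TATA box was TATAAA. Coordinates are GRCh38.p14, another build than the hg19 of the counts.
LINC00426, chr13:30373865-30374164, minus strand: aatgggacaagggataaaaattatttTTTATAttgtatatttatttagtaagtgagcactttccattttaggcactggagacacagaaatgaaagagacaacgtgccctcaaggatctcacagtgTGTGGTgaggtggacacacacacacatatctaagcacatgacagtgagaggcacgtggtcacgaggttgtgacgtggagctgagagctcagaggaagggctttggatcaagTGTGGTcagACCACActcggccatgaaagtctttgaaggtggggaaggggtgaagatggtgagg
LINC01132, chr1:234723792-234724091, plus strand: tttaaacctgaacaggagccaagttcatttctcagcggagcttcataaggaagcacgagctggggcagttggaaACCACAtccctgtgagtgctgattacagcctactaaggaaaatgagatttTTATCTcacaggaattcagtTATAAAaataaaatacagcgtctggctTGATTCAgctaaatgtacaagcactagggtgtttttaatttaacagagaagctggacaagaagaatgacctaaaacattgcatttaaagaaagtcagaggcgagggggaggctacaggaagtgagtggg
LINC00422, chr13:21344810-21345109, minus strand: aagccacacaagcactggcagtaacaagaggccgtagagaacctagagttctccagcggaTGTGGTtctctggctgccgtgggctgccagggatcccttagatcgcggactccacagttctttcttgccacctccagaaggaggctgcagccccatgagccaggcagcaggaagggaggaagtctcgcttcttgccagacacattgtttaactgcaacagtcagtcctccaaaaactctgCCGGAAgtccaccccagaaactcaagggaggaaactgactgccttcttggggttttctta
LINC01003, chr7:152463874-152464173, plus strand: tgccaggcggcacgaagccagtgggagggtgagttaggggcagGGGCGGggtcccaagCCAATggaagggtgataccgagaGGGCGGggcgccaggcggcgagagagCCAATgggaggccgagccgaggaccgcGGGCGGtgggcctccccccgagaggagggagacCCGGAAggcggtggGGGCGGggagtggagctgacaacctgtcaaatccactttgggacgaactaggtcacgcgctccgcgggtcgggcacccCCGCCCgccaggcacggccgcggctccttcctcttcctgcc
The LINC00426 window holds 3 RUNX matches and a TATA match at 46.0% G and C. The LINC01132 window has 1 match each for RUNX, GATA, AP-1 and TATA at 42.0% G and C. LINC00422 has 1 RUNX and 1 ETS match. LINC01003 is of the opposite kind, with 71.7% G and C, 28 CpG, 5 GC boxes and 2 NFY matches. Of the 4 printed, only LINC01003 lacks a RUNX match, whereas 36.4% of the 11 windows hold 1 or more. The printed windows thus do not represent the 11. LINC00094, with the smallest adjusted p of the 12, is not printed. Its window has 74.3% G and C, 28 CpG, 2 GC boxes and no other match.

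Over the 11 windows of members lower in both lines, 36.4% held a RUNX match, 36.4% an ETS match and 36.4% a GATA match, which is 4 windows each. Of all 35116 RefSeq promoter windows, 13.1, 17.2 and 10.3% did, and of the 33 windows of members called in neither line 12.1, 27.3 and 9.09%. The GC box was in 27.3% of the 11 windows and 45.0% of all, and the TATA match in 27.3 and 11.5%. The median G and C content was 54.7% for the 11 and 58.7% for all. No RBPJ match was found in the 11, against 6.25% of all windows. A match is a run of letters, no binding was measured, and with 11 windows a share moves by a large step per window, so these are descriptions.

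Of the rises shared by the lines, that of LINC00174 was small, and that of LINC01011 was larger but rested on low counts. LINC00174 went from 298 and 295 to 347 and 368 counts in DND-41 (log2 fold change 0.25 ± 0.09, edgeR adjusted p = 0.0432) and from 354 and 381 to 458 and 456 in MOLT-4 (0.39 ± 0.08, adjusted p = 0.000623). Leaving out any 1 DND-41 library ended the call there, at adjusted p of 0.0505 to 0.214. LINC01011 was low in all libraries, at 15 and 8 against 27 and 29 counts in DND-41 (1.25 ± 0.37, adjusted p = 0.0139, and 0.201 without DMSO replicate 2) and 15 and 16 against 36 and 37 in MOLT-4 (1.31 ± 0.32, adjusted p = 0.00239). In both lines it reached the minimum only in libraries with ACBI-1, so these rises are descriptions. LINC01011 overlaps NQO2, a quinone reductase gene, on the same strand. NQO2 fell in DND-41 (-0.37 ± 0.10, adjusted p = 0.00941) and rose in MOLT-4 (0.35 ± 0.09, adjusted p = 0.00321).

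LINC00051 was the member called in opposite directions. In MOLT-4 it went up from 111 and 131 to 240 and 215 counts (log2 fold change 0.99 ± 0.12, edgeR adjusted p = 2.13e-06). In DND-41 it went down from 45 and 54 to 31 and 26 counts (-0.81 ± 0.26, adjusted p = 0.0221). The DND-41 call was lost without ACBI-1 replicate 2 or DMSO replicate 2 (adjusted p of 0.0838 and 0.190). The difference between the lines, MOLT-4 minus DND-41, was 1.82 ± 0.27 (adjusted p = 0.000108). It passed with both MOLT-4 replicate 2 libraries left out, too (adjusted p = 0.00264).

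**Figure D3:**
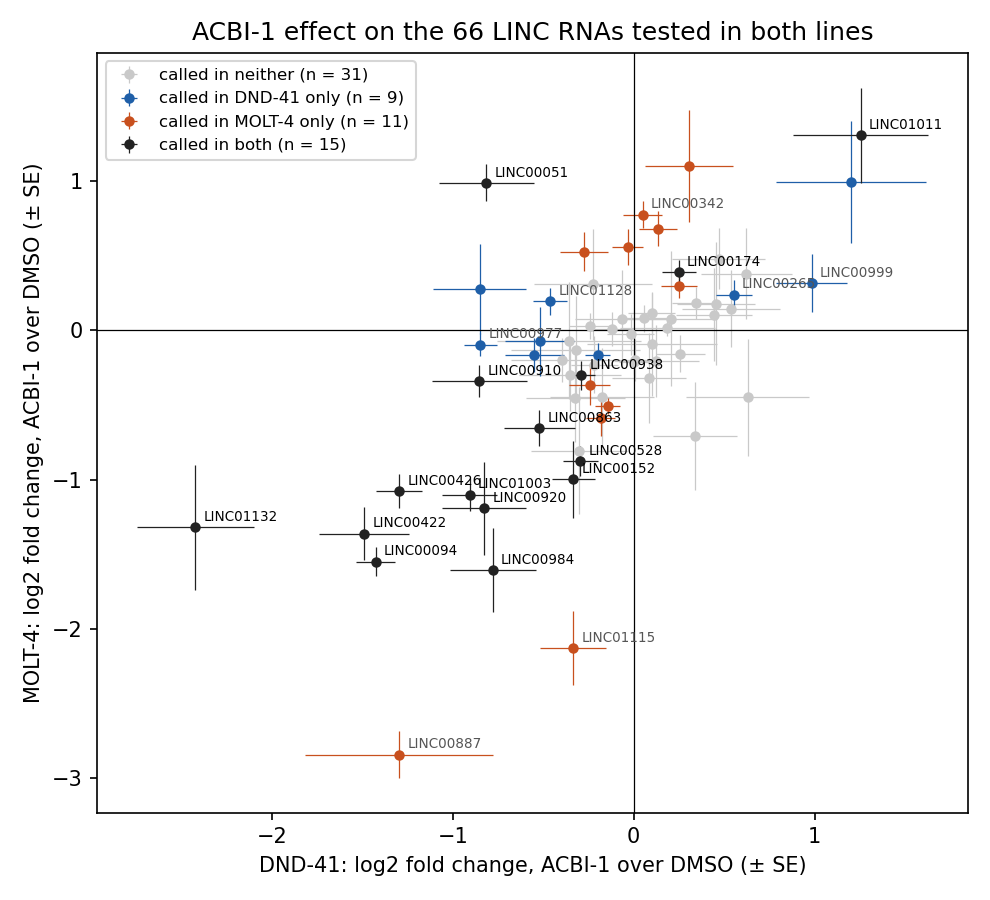
Log2 fold change, ACBI-1 over DMSO, in DND-41 (x axis) and MOLT-4 (y axis) for the 66 LINC RNAs tested in both lines, with SE bars. Black points were called in both lines (15), blue in DND-41 only (9), orange in MOLT-4 only (11) and grey in neither (31). The lower left holds the 12 shared falls and LINC00051 stands alone at the upper left.

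In MOLT-4 the largest changes were seen in members that DND-41 hardly expressed. LINC00887 had 285 and 260 counts with DMSO and 37 and 35 with ACBI-1, so that no treated library came near a control. Its log2 fold change was -2.84 ± 0.16 (edgeR adjusted p = 1.88e-11). In DND-41 it had 13 and 14 against 8 and 3 counts (-1.30 ± 0.52, adjusted p = 0.0580), and the difference between the lines did not pass (-1.53 ± 0.58, adjusted p = 0.0974).

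LINC00982, named PRDM16-DT in RefSeq, was counted 32 and 37 times in MOLT-4 with DMSO, 2 and 0 times with ACBI-1, and never in DND-41. The fitted log2 fold change was -4.87 ± 0.60 (edgeR adjusted p = 1.56e-06). From the summed counts, 69 and 2, the ratio of DMSO over ACBI-1 was 32.6 with an exact 95% interval of 8.70 to 275. It was chosen after its values were seen and entered through its DMSO libraries alone, so the fall is a description. PRDM16, the zinc finger and methyltransferase gene whose start lies within 5000 bases on the other strand, moved with it. PRDM16 had 397 and 444 counts with DMSO and 33 and 28 with ACBI-1 in MOLT-4 (-3.70 ± 0.14, adjusted p = 1.08e-13) and 0 in every DND-41 library.

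LINC01115 was at similar counts in both lines with DMSO, 91 and 83 in DND-41 and 85 and 91 in MOLT-4. With ACBI-1 it was at 66 and 74 in DND-41 and at 17 and 21 in MOLT-4. The log2 fold change was -0.33 ± 0.18 (edgeR adjusted p = 0.156) in DND-41 and -2.13 ± 0.25 (adjusted p = 8.71e-07) in MOLT-4. The difference of -1.78 ± 0.29 passed (adjusted p = 0.000345), and did so again when both MOLT-4 replicate 2 libraries were dropped (adjusted p = 0.00836).

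The promoter windows of LINC00982 and LINC01115 are shown because both members fell by more than 2 on the log2 scale in MOLT-4. LINC00887 (-2.84) did so too, and its window is not printed. That window has 52.7% G and C, 7 CpG and 1 RBPJ match, and no other match. The same motifs are in capitals.
LINC00982, chr1:3067676-3067975, minus strand: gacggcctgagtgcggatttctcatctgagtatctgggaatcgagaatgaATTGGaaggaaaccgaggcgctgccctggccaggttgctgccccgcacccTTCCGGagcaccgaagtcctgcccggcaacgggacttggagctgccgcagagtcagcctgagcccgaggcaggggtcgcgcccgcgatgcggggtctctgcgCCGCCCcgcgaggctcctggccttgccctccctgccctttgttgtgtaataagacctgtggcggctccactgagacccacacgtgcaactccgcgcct
LINC01115, chr2:868377-868676, minus strand: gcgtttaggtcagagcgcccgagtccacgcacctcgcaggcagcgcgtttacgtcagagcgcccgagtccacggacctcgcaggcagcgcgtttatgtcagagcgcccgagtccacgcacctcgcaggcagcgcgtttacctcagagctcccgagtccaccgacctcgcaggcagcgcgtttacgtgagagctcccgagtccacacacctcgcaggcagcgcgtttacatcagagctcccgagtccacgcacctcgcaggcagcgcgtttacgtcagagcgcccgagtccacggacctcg
Neither printed window holds a RUNX, GATA or TATA match. LINC00982 has 25 CpG, with 1 match each for ETS, NFY and the GC box. The LINC01115 window holds 40 CpG and none of the letters searched. It is a tandem repeat: set against itself shifted by 88 bases, 92.9% of its bases are identical, while the best shift of up to 100 bases gave 32.2 to 39% in the other 5 windows printed.

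LINC00565 and LINC00452, whose nearest coding gene is GAS6 for both, had the largest rises in MOLT-4. LINC00565, RefSeq's SWINGN, went from 8 and 7 counts with DMSO to 128 and 125 with ACBI-1 (log2 fold change 4.13 ± 0.27, edgeR adjusted p = 2.17e-10). LINC00452 went from 1 and 1 to 28 and 21, a ratio of 25.9 with an exact 95% interval of 6.80 to 220 (adjusted p = 2.97e-06). In DND-41 they had 0 to 13 and 0 to 3 counts and were not tested. Both reached the minimum with ACBI-1 in MOLT-4 alone, so these rises are descriptions. GAS6, which encodes a ligand of the TAM receptor kinases, had 166 and 235 counts with DMSO and 159 and 136 with ACBI-1 in MOLT-4 (-0.36 ± 0.14, adjusted p = 0.0426).

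Among the abundant members, LINC00657 (NORAD) fell in MOLT-4 from 4541 and 4669 to 3206 and 2937 counts, or -0.51 ± 0.05 on the log2 scale (edgeR adjusted p = 2.05e-07). In DND-41 its counts were 4680 and 4783 with DMSO and 3937 and 4768 with ACBI-1, so the groups overlapped (-0.14 ± 0.07, adjusted p = 0.111). LINC00342 rose in MOLT-4 from 254 and 289 to 458 and 423 counts (0.77 ± 0.09, adjusted p = 7.90e-07), while its DND-41 counts of 362 and 385 with DMSO lay between those with ACBI-1, 339 and 446. LINC00883, listed as DUBR, rose from 167 and 155 to 248 and 242 in MOLT-4 (0.68 ± 0.12, adjusted p = 7.23e-05). LINC00641 rose from 155 and 146 to 232 and 180 (0.53 ± 0.13, adjusted p = 0.00275), a call that ended with both replicate 2 libraries left out (adjusted p = 0.0518). LINC00667 fell from 209 and 212 to 133 and 133 (-0.59 ± 0.12, adjusted p = 0.000523).

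**Figure D4:**
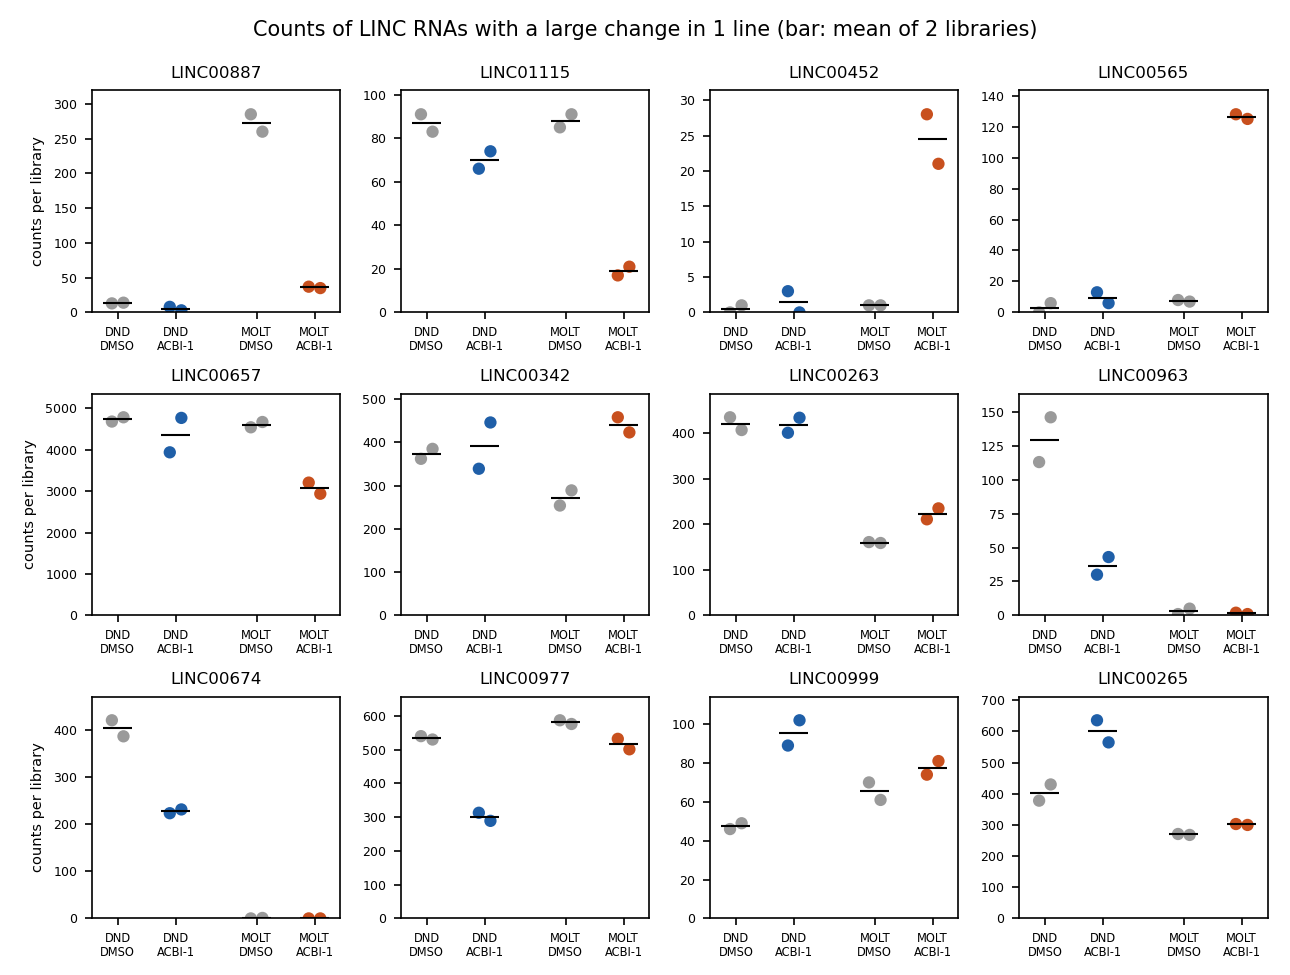
Counts per library for 12 LINC RNAs called in 1 line and not called or not tested in the other. DMSO is in grey and ACBI-1 in blue (DND-41) or orange (MOLT-4). A call in 1 line alone is not a difference between the lines. Points are libraries, bars are means of 2, and y axes start at 0 and differ between panels. LINC00565 stands at 128 and 125 counts in MOLT-4 with ACBI-1 and at 13 or fewer elsewhere, and LINC00963 is high in DND-41 with DMSO.

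In DND-41, LINC00963 fell from 113 and 146 to 30 and 43 counts (log2 fold change -1.85 ± 0.22, edgeR adjusted p = 9.53e-06). It was at 1 to 5 counts in MOLT-4. LINC00674, restricted to this line, fell from 420 and 386 to 223 and 231 (-0.85 ± 0.10, adjusted p = 6.59e-06). LINC00977 fell from 540 and 530 to 313 and 289 (-0.85 ± 0.09, adjusted p = 3.32e-06), while its MOLT-4 counts were 587 and 576 against 532 and 501 (-0.10 ± 0.07, adjusted p = 0.316). LINC01128 fell from 497 and 511 to 333 and 410 (-0.46 ± 0.09, adjusted p = 0.00115). In each of these 4 the treated libraries lay below both controls. How often this held over all genes was not counted.

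Some DND-41 falls were from low counts. LINC00261, a transcript beside the forkhead factor gene FOXA2, went from 30 and 29 to 9 and 7 (log2 fold change -1.89 ± 0.38, edgeR adjusted p = 0.000957). LINC00888, which RefSeq lists as the snoRNA host SNHG33, went from 23 and 27 to 3 and 4 (-2.81 ± 0.47, adjusted p = 0.000215) and was named after its values were seen. Both passed the minimum through the DMSO libraries of DND-41 alone, so these falls are descriptions. LINC01125, today C2orf92, had 70 and 53 against 40 and 29 counts (adjusted p = 0.0156), and lost its call without ACBI-1 replicate 2 or DMSO replicate 1 (adjusted p of 0.0727 and 0.149). LINC00116 (MTLN) had 247 and 169 against 148 and 140 counts (-0.55 ± 0.16, adjusted p = 0.0136), but without DMSO replicate 1, the higher control, its adjusted p was 0.284.

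The rises in DND-41 were few. LINC00265 rose from 378 and 430 to 636 and 565 counts (log2 fold change 0.55 ± 0.10, edgeR adjusted p = 0.000423), and LINC00999 from 46 and 49 to 89 and 102 (0.98 ± 0.20, adjusted p = 0.000931). In MOLT-4 these 2 had log2 fold changes of 0.24 ± 0.10 (adjusted p = 0.0555) and 0.32 ± 0.20 (adjusted p = 0.201), and the difference between the lines did not pass for either (adjusted p of 0.218 and 0.126). LINC00226 went from 28 and 29 to 51 and 54 in DND-41 (0.86 ± 0.25, adjusted p = 0.0120). That call was lost without either control, at adjusted p of 0.0813 and 0.0532.

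Among members that encode small proteins, LINC00998 (SMIM30) had 205 and 207 against 176 and 178 counts in DND-41 (log2 fold change -0.24 ± 0.12, edgeR adjusted p = 0.117) and 354 and 372 against 355 and 346 in MOLT-4 (0.03 ± 0.09, adjusted p = 0.837). LINC00493 (SMIM26) had 361 and 277 against 370 and 301 and 325 and 378 against 372 and 332, with overlapping groups in both lines. The miRNA hosts LINC00478 and LINC00461 also did not pass, with log2 fold changes of -0.15 ± 0.24 (adjusted p = 0.654) in DND-41 and -0.31 ± 0.33 (adjusted p = 0.469) in MOLT-4.

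The treatment effect itself was compared between the lines by an interaction term (the change in MOLT-4 less that in DND-41, 8 libraries). All 88 members could be tested. The difference was positive for 7 and negative for 3 members, or 11.4%, against 13.3% of all 15498 genes tested (7.18% positive, 6.17% negative). Positive were LINC00051, LINC00641, LINC00977, LINC00342, LINC01128, LINC00263 and LINC00883, and negative were LINC01115, LINC00528 and LINC00657. Without both MOLT-4 replicate 2 libraries 4 were called, namely LINC00051, LINC00342, LINC00977 and LINC01115. For a member at 0 in 1 line, such as LINC00982, this test has no estimate of that line's change to compare with.

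Neighbouring coding genes were taken from the GENCODE gene order. In 17 pairs the 2 starts lay within 5000 bases. In DND-41, 15 of these pairs had both genes tested, 5 LINC members were called, and in 3 of those the neighbour was called too, with the same sign in 2. In MOLT-4 all 17 were tested, 6 members were called, and in 3 the neighbour was called too, with the same sign in all 3. The other 67 pairs lay further apart. In DND-41, 31 of these had both genes tested, 15 LINC members were called, and in 8 of those the neighbour was called too, with the same sign in 6. In MOLT-4, 39 were tested, 16 members were called, and in 9 the neighbour was called too, with the same sign in 6. These counts stand beside the 43.2 and 45.1% of all genes called in DND-41 and MOLT-4. The near pairs with both called were LINC00528 with BID, LINC01125 with ACTR1B and LINC01011 with NQO2 in DND-41, and LINC00982 with PRDM16, LINC00528 with BID and LINC01011 with NQO2 in MOLT-4.

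LINC00528 starts within 5000 bases of BID, on the other strand. BID encodes a BH3-only protein that links death receptors to the mitochondrial path of apoptosis. LINC00528 went from 335 and 363 to 282 and 295 counts in DND-41 (log2 fold change -0.30 ± 0.10, edgeR adjusted p = 0.0244, and 0.237 without DMSO replicate 2) and from 390 and 381 to 208 and 191 in MOLT-4 (-0.87 ± 0.10, adjusted p = 6.17e-07). BID went from 1422 and 1266 to 1025 and 1010 (-0.42 ± 0.07, adjusted p = 0.000234) and from 1335 and 1380 to 744 and 648 (-0.89 ± 0.07, adjusted p = 3.32e-09). The difference between the lines passed for LINC00528 (-0.56 ± 0.14, adjusted p = 0.00945), but not once both MOLT-4 replicate 2 libraries were left out (adjusted p = 0.0570).

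The nearest coding gene of LINC00263, listed as OLMALINC, is SCD, the stearoyl-CoA desaturase gene of fatty acid synthesis. The 2 starts lie 26389 bases apart. LINC00263 rose in MOLT-4 from 161 and 159 to 211 and 235 counts (log2 fold change 0.56 ± 0.12, edgeR adjusted p = 0.000841, or 0.0936 once both replicate 2 libraries were left out). In DND-41 it had 435 and 407 against 401 and 434. SCD rose in MOLT-4 from 6163 and 6836 to 8805 and 8959 (0.53 ± 0.06, adjusted p = 3.63e-07) and fell in DND-41 from 7613 and 7883 to 5880 and 6684 (-0.32 ± 0.06, adjusted p = 0.000685). LINC00984 and its neighbour PLCB2, a phospholipase C gene with its start 15729 bases away, both fell in both lines. PLCB2 had log2 fold changes of -0.61 ± 0.08 (adjusted p = 2.40e-05) and -1.23 ± 0.10 (adjusted p = 6.02e-09).

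Neighbours did not always go together. LINC00261 was found in DND-41, where FOXA2 was at 0, 0, 0 and 1 counts. FOXA2 was found in MOLT-4, at 66 and 68 counts with DMSO and 8 and 5 with ACBI-1 (log2 fold change -3.27 ± 0.34, edgeR adjusted p = 1.74e-07), where LINC00261 was at 0. LINC01003 fell in both lines, while KMT2C rose in DND-41 (0.23 ± 0.07, adjusted p = 0.0237) and did not pass in MOLT-4 (0.11 ± 0.06, adjusted p = 0.143). LINC01132 fell in both lines, while its nearest coding gene IRF2BP2 rose in both (0.35 ± 0.06, adjusted p = 0.000488, and 0.33 ± 0.06, adjusted p = 0.000178).

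**Figure D5:**
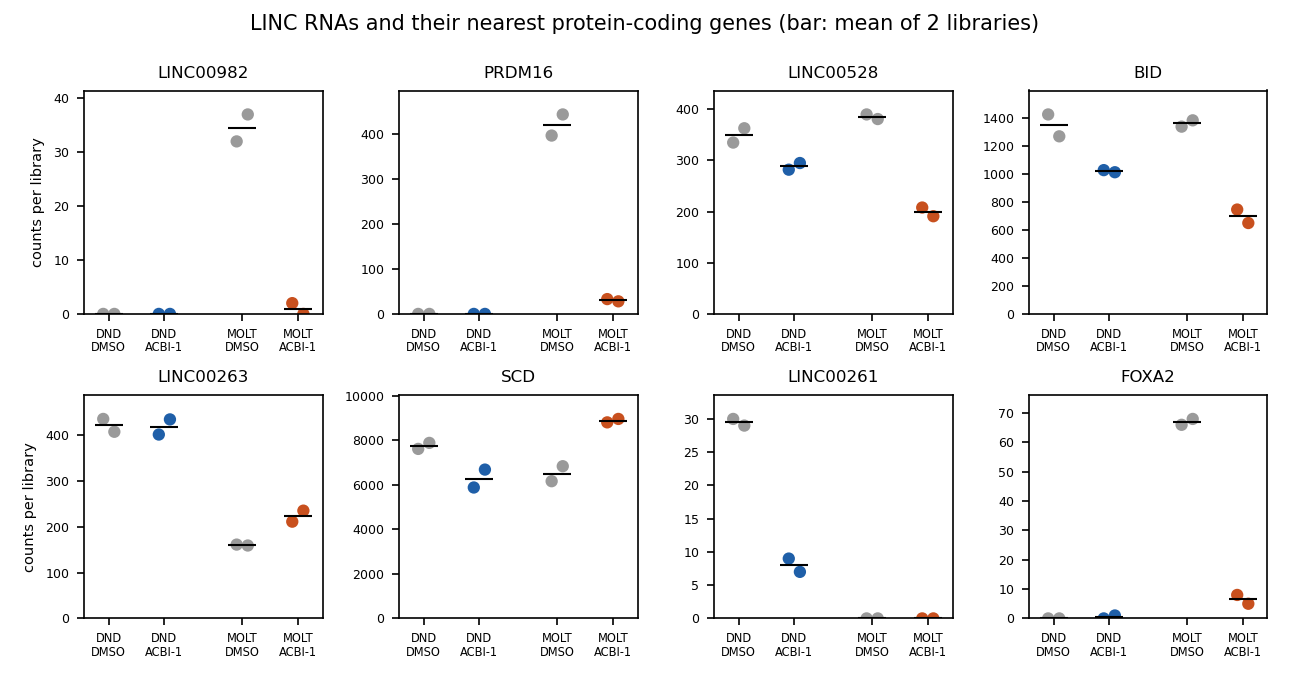
Counts per library of 4 LINC RNAs and, to the right of each, the nearest protein-coding gene, with DMSO in grey and ACBI-1 in blue (DND-41) or orange (MOLT-4). Points are libraries, bars are means of 2, and y axes start at 0 and differ between panels. LINC00982 and PRDM16 are both at 0 in DND-41 and drop in MOLT-4, whereas LINC00261 and FOXA2 are found in different lines.

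A list of well-known long noncoding RNAs that are not members, LINC-PINT among them, was counted beside the members. In DND-41, 12 of 40 tested fell and 7 rose, and in MOLT-4 8 of 42 fell and 15 rose. NEAT1, the scaffold of paraspeckles, fell in both lines (log2 fold change -0.98 ± 0.08, edgeR adjusted p = 1.15e-07, and -0.71 ± 0.09, adjusted p = 3.52e-06), and MALAT1 did not pass in either (adjusted p of 0.145 and 0.276). Of all other GENCODE long noncoding RNA genes tested, 23.5% of 1481 were called in DND-41 and 23.9% of 1383 in MOLT-4, and of the protein-coding genes 48.2 and 49.9%. These classes differ from the members in level, since the members had to reach the count minimum. In the authors' deposited tables, 13 of the 72 members with an adjusted p were under 0.05 in DND-41 and 19 of 81 in MOLT-4. Over all 63677 gene rows, 4061 and 4035 were under 0.05. How many of those rows had an adjusted p was not counted, so the shares cannot be compared and nothing is read from them.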

How the data were processed

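Total RNA of both lines was sequenced as stranded paired-end reads, per the labels' protocols. The submitters' processing notes name STAR 2.5.2a, featureCounts, DESeq2 1.12.4 and the hg19 build. They give no annotation, strand setting or filter. The deposited counts are whole numbers per gene that the authors did not normalize. Per the file headers, the authors' DESeq2 tables add log2 fold changes, p-values and score columns (mean normalized count, test statistic). Which treatment is the numerator is not written there. Symbols, how many members were under the threshold and the signs of the log2 fold changes were taken from them: of 31 members called here in each line, 31 had the same sign as the counts in DND-41 and 31 the opposite sign in MOLT-4. Printed directions follow the count columns' names.

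Counts of both tables were joined by gene identifier. Each line was fitted with edgeR 4.0.16 in R 4.3.3 (filterByExpr with a minimum count of 10, TMM, quasi-likelihood F test, treatment as the only term) over all genes kept, with Benjamini-Hochberg adjustment over all of them and a threshold of 0.05. Each SE was derived from the log2 fold change and F (log2 fold change over root F). The line by treatment interaction used all 8 libraries. CPM are over effective library sizes of all 8 libraries, and 95% intervals of ratios are exact and conditional on the summed counts. The scripts were tested on simulated counts. GENCODE 29 and RefSeq (GRCh38.p14), another build than the files', gave types, lengths, neighbours and sequences by identifier or symbol. Alternatives were DESeq2 1.42.0, other scalings and filters, a stricter threshold, a replicate block and leaving out libraries.

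The members and lists were chosen with earlier results of these data known. Named members were the 8 largest rises and falls in each line at 1 CPM or more, those called in both lines, the 5 largest differences of each sign, the 8 highest with DMSO, the 6 highest restricted to a line, well-known LINC genes and those at the edge of the minimum. LINC00982, LINC00888, LINC00909 and LINC01155 fall outside this rule and were named after their values were seen. Nearest coding neighbours of named members were also eligible.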

Additional observations from a re-analysis of the deposited data

Results flagged for a closer look

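For 10 members the effect of ACBI-1 differed between the lines by the test of the interaction (edgeR's quasi-likelihood test, adjusted p under 0.05, MOLT-4 minus DND-41 on the log2 scale, 2 libraries in each of the 4 groups). The differences were 1.82 ± 0.27 (SE) for LINC00051, 0.82 ± 0.20 for LINC00641, 0.77 ± 0.12 for LINC00977, 0.74 ± 0.15 for LINC00342, 0.67 ± 0.14 for LINC01128, 0.61 ± 0.14 for LINC00263, 0.56 ± 0.15 for LINC00883, -0.35 ± 0.09 for LINC00657, -0.56 ± 0.14 for LINC00528 and -1.78 ± 0.29 for LINC01115. LINC00051, LINC00342, LINC00977, LINC01115 and LINC01128 stayed under the threshold when any 1 library was left out, and all of these but LINC01128 (adjusted p = 0.0815) also without both MOLT-4 replicate 2 libraries.

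The other 5 calls depended on single libraries. LINC00657 was not called without DND-41 ACBI-1 replicate 2, DND-41 DMSO replicate 1, MOLT-4 ACBI-1 replicate 2 or MOLT-4 DMSO replicate 1 (edgeR adjusted p of 0.0617, 0.102, 0.0980 and 0.0514). LINC00883 was not called without DND-41 DMSO replicate 2, either MOLT-4 ACBI-1 library or MOLT-4 DMSO replicate 2 (0.0512 to 0.126). LINC00528 was lost without DND-41 DMSO replicate 1 (0.0615) or MOLT-4 ACBI-1 replicate 2 (0.0513). LINC00641 was lost without MOLT-4 ACBI-1 replicate 1 (0.0790) or DMSO replicate 2 (0.0551), and LINC00263 without MOLT-4 ACBI-1 replicate 2 (0.0619) or DMSO replicate 2 (0.0523).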

How the results depend on the processing

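With DESeq2, 15 members were called in DND-41 (2 rises, 13 falls), and at an adjusted p of 0.01 in edgeR 17 (2 rises, 15 falls), in place of 31. In the list of named long noncoding RNAs, 19 calls in DND-41 became 11 with no filter on low counts, 7 with DESeq2, 9 at 0.01 and 9 to 20 when single libraries were left out, and 23 calls in MOLT-4 became 13 with DESeq2. Without both MOLT-4 replicate 2 libraries, an alternative chosen after seeing the data, rises of members in MOLT-4 went from 12 to 6, named long noncoding RNAs from 23 to 10, differences between the lines from 10 to 4 (3 positive, 1 negative) and members restricted to MOLT-4 from 8 to 4. Leaving out single libraries gave 6 to 12 differences between the lines (4 to 9 positive, 1 to 4 negative). It gave 22 to 33 calls in DND-41 and 29 to 32 in MOLT-4. With 0 counts required in the other line, 2 members were restricted to DND-41 and 4 to MOLT-4, 6 in all. The cause of these changes was not tested, except that a stricter adjusted p or count limit can only remove calls. In MOLT-4, LINC00909 and LINC01006 lost their calls without any 1 library (adjusted p of 0.0691 to 0.127 and 0.0837 to 0.287), LINC00537 without ACBI-1 replicate 1 (0.158) or DMSO replicate 2 (0.383) and LINC01155 without ACBI-1 replicate 1 (0.257) or DMSO replicate 1 (0.149). No result reversed its call. Over single members and settings other than leaving out 1 library, 1349 values kept direction and side of the threshold, 59 lost the call, 23 gained one and 28 without a call changed sign. Deviations of same-numbered replicates had r of 0.218 between the MOLT-4 groups, whose replicate 2 libraries held the higher COL1A1 counts. The r was 0.0381 between the DND-41 groups and -0.0483 at the lowest over 6 pairs of groups. In MOLT-4 same-numbered libraries thus deviated together to some degree. The main fits did not take the numbers as a pairing in either line. With a replicate block, 37 members were called in DND-41 (9 rises, 28 falls), 35 in MOLT-4 (14 rises, 21 falls), 11 by the interaction and 66 between the lines with DMSO. At these library totals 3 counts equal 0.15 CPM, so folds of members near 20 counts are loosely bounded.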
